A study of Homo sapiens with 2 samples.

Results

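The 37 genes described here encode subunits of the proteasome or proteins that assemble and regulate it. They were selected by gene symbol from the table of transcript models: PSMA1 to PSMA7, PSMB1 to PSMB4, PSMC1 to PSMC6, PSMD1 to PSMD14, PSME3, PSMF1, PSMG1 to PSMG3 and ADRM1. All 37 had reads, out of 16645 annotated genes with reads, and they held 1590 of the 237608 models. The set is wider than the core particle alone, since 6 members are assembly chaperones and 2 are an activator and a regulator. RNA came from GM12878, an untreated human B-lymphoblastoid line transformed with Epstein-Barr virus. It was read in 2 replicate libraries of 1 group by Oxford Nanopore direct RNA sequencing, which reads each native strand once, starting at its 3′ end. The labels do not say whether the replicates were separate cultures, so every test compares these 2 libraries only and the spread may be technical. Of 9 B cell marker genes all had reads, whereas of 6 markers of other lineages LYZ, GATA1, HBG1 and ALB had 0, COL1A1 had 2 and 3 and CD3E had 5 and 16.

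The proteasome degrades proteins tagged with ubiquitin. Its 20S core is a barrel of stacked rings: alpha subunits form the outer rings and gate the entrance, and beta subunits form the inner rings, some of which carry the proteolytic sites. The 19S cap sits on the barrel; its base holds a ring of ATPases that unfold substrates and pull them in, and its lid removes the ubiquitin chain. Dedicated chaperones build the core and the base and are not part of the finished particle. B cells and cell lines derived from them also make an immunoproteasome, in which the proteolytic beta subunits are replaced.

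The genes were read at moderate depth, with 9717 reads in replicate 1 and 8849 in replicate 2, of library totals of 1360368 and 1510998. Their share of all reads was 0.714% and 0.586%, on average 0.650% ± 0.0910 (SD, n = 2). One read was worth 0.735 and 0.662 CPM (reads scaled to a common library total). Since a strand gives 1 read whatever its length, levels are in CPM of the whole gene. Where genes are compared with each other, CPM per kilobase of the most read known model is given beside it. That divisor is the annotated length, which the listed lengths of other models of several members did not reach.

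Genes of the 20S core were read more often than those of the 19S cap in both libraries. The 11 core genes had a median of 292.6 CPM in replicate 1 and 285.9 CPM in replicate 2, and the 18 cap genes had medians of 144.4 and 104.9 CPM. The ratio of the medians was 2.03 in replicate 1 and 2.73 in replicate 2 (mean 2.38 ± 0.495, SD, n = 2). Per kilobase of annotated length it was 3.32. Of the 18 cap genes, PSMD8 alone lay above PSMA1, the lowest of these 11 core genes, in mean CPM. This order held for the selected genes: PSMB5, a proteolytic core subunit outside the set, had 132.1 CPM, below cap genes such as PSMC5 (181.5 CPM). The chaperones were lower still, with medians of 66.2 and 59.6 CPM.

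In the alpha ring, levels spanned a 2.24-fold range of mean CPM. PSMA6 (chromosome 14, 35278633 to 35317493, plus strand, GRCh38) had 661 reads (485.9 CPM) in replicate 1 and 522 reads (345.5 CPM) in replicate 2, a mean of 415.7 ± 99.3 CPM (SD, n = 2). PSMA1 stood at the other end with 254 and 278 reads, 185.3 ± 1.93 CPM (SD, n = 2). PSMA2, PSMA4, PSMA5, PSMA7 and PSMA3 fell between them, at means of 323.9, 287.03, 274.6, 266.7 and 218.1 CPM, although every finished core holds these subunits in equal number. Per kilobase PSMA6 remained the highest of the ring at 404.0 CPM, and PSMA4, whose known model has 4411 bases, became the lowest at 65.1 CPM. Unannotated models of PSMA4 with as many exons had a median of 1146 bases, so its place per kilobase depends on the length used.

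The 4 beta ring genes, none of which encodes a proteolytic subunit, included the highest member. PSMB1 (chromosome 6, 170535117 to 170553341, minus strand) had 675 and 595 reads, or 496.2 and 393.8 CPM, a mean of 445.0 ± 72.4 CPM (SD, n = 2). PSMB4 had means of 401.7 CPM, PSMB3 359.9 CPM and PSMB2 276.6 CPM, so the ring spanned a 1.61-fold range. Per kilobase PSMB1 (479.5 CPM) and PSMB3 (465.6 CPM) led all members.

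Among the 6 ATPases of the base, PSMC6 (chromosome 14, 52707172 to 52728587, plus strand) stood apart. It had 78 and 73 reads, 52.8 ± 6.38 CPM (SD, n = 2), while the other 5 had means between 112.8 CPM (PSMC2) and 181.5 CPM (PSMC5). The values of PSMC6 in both libraries lay below those of every other ATPase in either library, and the range over the ring was 3.44-fold. Of the remaining base genes, PSMD2, a large scaffold subunit, had a mean of 160.9 CPM, and the ubiquitin receptors PSMD4 and ADRM1 had 156.6 and 137.1 CPM. PSMD1, the other scaffold, had 86.5 ± 12.8 CPM (SD, n = 2).

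The lid had the widest range of the structural groups, 5.47-fold. PSMD8 had 478 and 402 reads, or 351.4 and 266.0 CPM, and PSMD12 had 86 and 75 reads, or 63.2 and 49.6 CPM. PSMD14, the enzyme that removes ubiquitin chains, had 129 and 99.3 CPM, and its partner PSMD7, which has no such activity, had 121 and 103 CPM. These partners did not separate, since their ranges over the libraries overlapped.

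The chaperones were PSMG1, PSMG2 and PSMG3 of the core, at means of 87.6, 80.1 and 59.7 CPM, and PSMD9, PSMD10 and PSMD5 of the base, at 66.0, 38.8 and 13.2 CPM. PSMD5 was the lowest member, with 18 and 20 reads, and PSMB1 exceeded it 33.6-fold in mean CPM. PSME3, the nuclear 11S activator, had 183.8 and 136.3 CPM, and PSMF1, an inhibitor of the core in vitro, had 119.8 and 87.4 CPM. The order of levels was largely shared by the libraries (Spearman's rho of 0.981 over 37 genes, a description across genes). Neighbours in that order were mostly not separable: in 31 of 36 neighbouring pairs the ranges over the libraries overlapped.

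**Figure D1:**
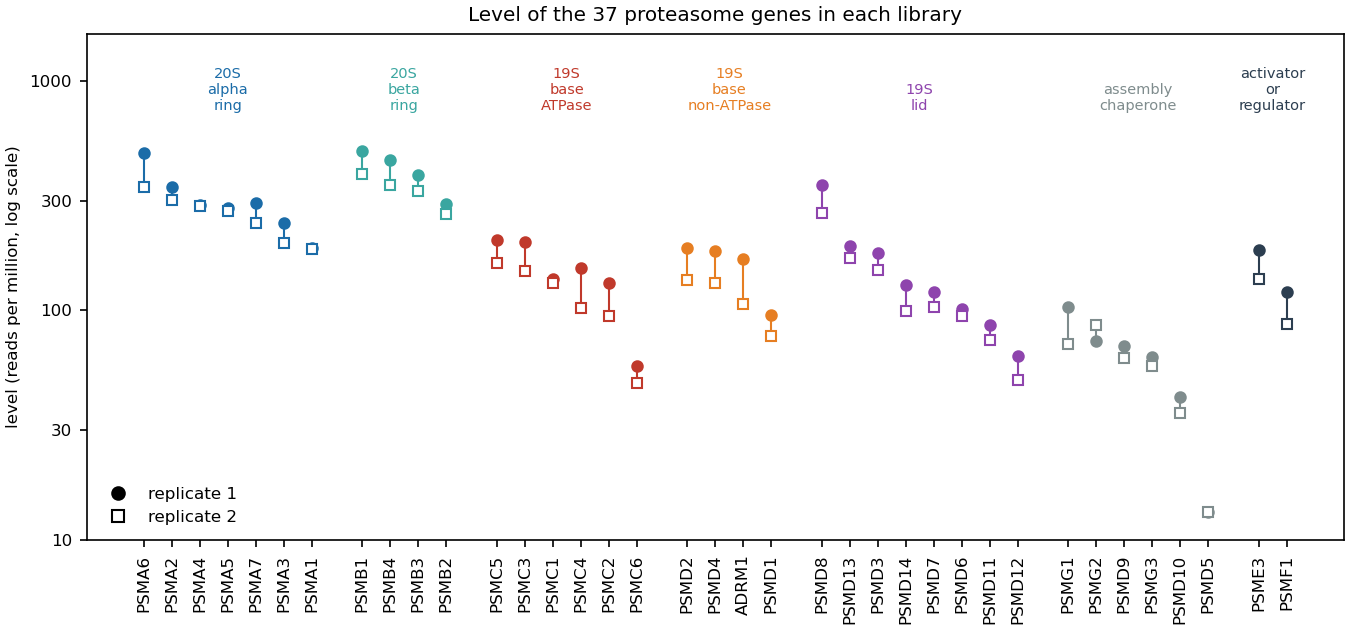
Level of each of the 37 genes in CPM (log axis) in replicate 1 (filled circles) and replicate 2 (open squares), joined by a line and grouped by role. The 11 genes of the core rings lie above all cap genes except PSMD8 in mean level, PSMD5 lies lowest at 13.2 CPM in both libraries, and the open square is above the circle visibly only for PSMG2.

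Nearly all members were lower in replicate 2. Summed over members, replicate 1 gave 7143 CPM and replicate 2 gave 5856 CPM, which is -0.29 on the log2 scale. Ratios were taken after adding 0.5 reads to each count. Of the 37 genes, 36 (97.3%) had a log2 ratio below 0, against 48.9% of the 10634 genes with at least 10 reads. One of the 36, PSMD5, had 13.2 CPM in both libraries, minimally higher in replicate 2 before the 0.5 reads were added, and with DESeq2 size factors 35 members were lower and 2 higher. The median log2 ratio of the members was -0.28 and that of all 10634 genes 0.01. Genes of like depth were centred slightly lower: among 3879 genes of 100 reads or more, the median was -0.05 and 56.7% were lower, against 35 of the 36 members of that depth. The medians are descriptions, and in bulk libraries fewer cells and less RNA per cell cannot be told apart. Reads in known models were also a smaller share of replicate 2, and the part of that difference in the gene levels was not tested.

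By a two-sided exact binomial test of each gene against the library totals, with Benjamini-Hochberg adjustment over 10634 genes, 10 members were called lower in replicate 2 and 0 higher, where 2.33% of all genes were called lower and 2.72% higher (5.05% in either direction). Among genes with at least 100 reads, 5.62% were called lower. At an unadjusted p under 0.05, 18 members (48.6%) were lower and 0 higher, where 15.8% of all genes passed in either direction. The calls came from every structural group. In the core they were PSMA6 (log2 ratio -0.49, adjusted p of 6.18e-07, exact binomial test), PSMB4 (-0.35) and PSMB1 (-0.33). In the base they were ADRM1 (-0.65, adjusted p of 0.000565, exact binomial test), PSMC4 (-0.57), PSMD2 (-0.47), PSMD4 (-0.46) and PSMC3 (-0.43). The lid gave PSMD8 (-0.40), and PSME3 (-0.43) was the activator called. No chaperone passed; PSMG1 came nearest, at -0.53 with 141 and 108 reads.

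The ubiquitin receptor ADRM1 (chromosome 20, 62302093 to 62308862, plus strand) had the lowest ratio, with 228 reads in replicate 1 and 161 in replicate 2 (167.6 and 106.6 CPM). PSMC4 had 207 and 155 reads, 152.2 and 102.6 CPM. At the other end lay genes with nearly equal levels: PSMA4 with 288.2 and 285.9 CPM, PSMA1 with 186.7 and 184.0 CPM and PSMC1 with 136.7 and 131.7 CPM. PSMG2, one of the paired chaperones that start the alpha ring, was the only member with a log2 ratio above 0 when scaled by library totals; it had 100 and 131 reads, and its ratio of 0.24 was not called. Within the alpha ring the log2 ratios ran from -0.49 in PSMA6 to -0.01 in PSMA4; this difference between genes was not itself tested. When genomic models were left out, 31 members were lower and 6 higher, 9 were called lower where 4.83% of all genes were, and the median was -0.22 against -0.08 over all genes so counted.

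**Figure D2:**
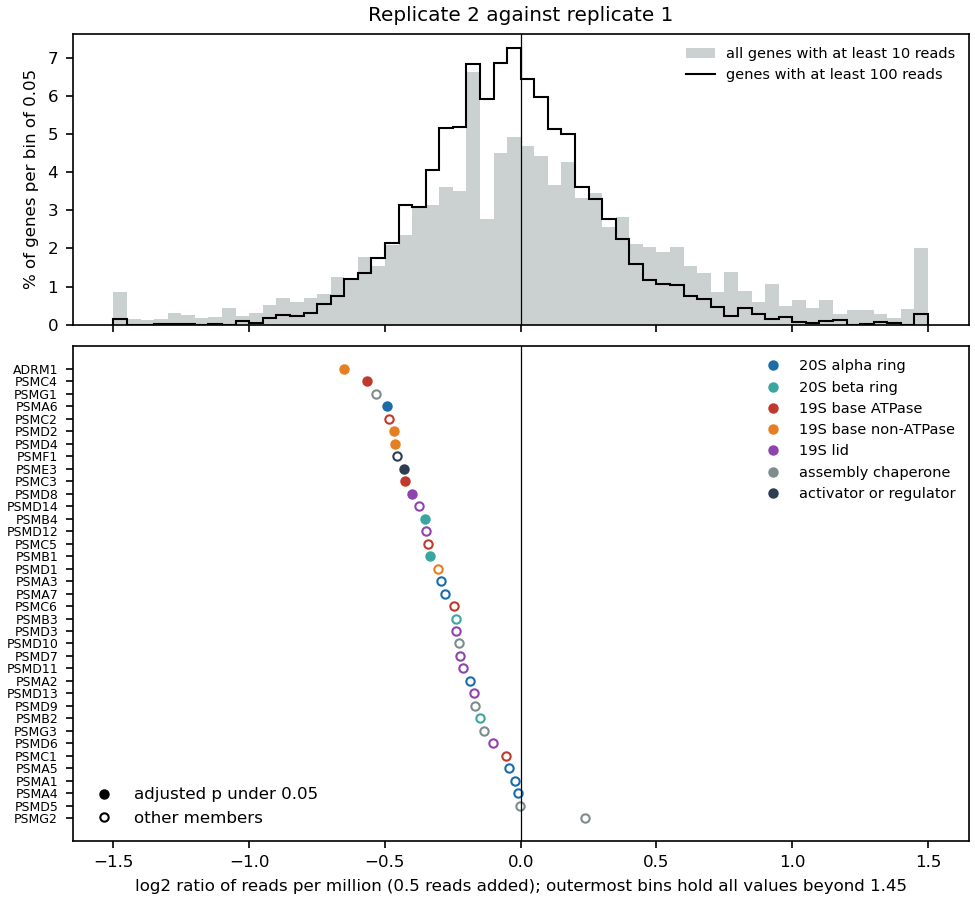
Log2 ratio of CPM, replicate 2 over replicate 1. The upper panel gives the percentage of all genes with at least 10 reads (grey) and at least 100 reads (line) in bins of 0.05, and the lower panel gives each member, coloured by role, filled where called. Of 37 members 36 lie left of 0, from -0.65 to -0.00, and PSMG2 lies at 0.24.

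The reads were next divided by how their model matched the annotation, as the table states it. Known models are annotated transcripts. ISM (incomplete splice match) models hold only part of the junctions of one, NIC joins annotated splice sites in an unlisted way, NNC has an unannotated splice site, and a genomic model overlaps the gene without its splicing. Known models held 64.1% of the members' reads in replicate 1 (95% Wilson interval 63.1 to 65.02%) and 48.8% in replicate 2 (47.8 to 49.8%), a mean of 56.4% ± 10.8 (SD, n = 2). ISM models held 20.9% and 37.5%. In all annotated genes the known share was 56.5% and 46.4%, so the members' share was higher in each library and the gap between the libraries was 15.3 percentage points, against 10.1. The intervals cover counting error only.

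What the members' incomplete reads had in common was the 3′ end. Suffix models, which keep that end, held 90.9% and 88.5% of the members' ISM reads, against 68.4% and 68.0% in all annotated genes. Those that keep the 5′ end (prefix) took 2.11% and 2.65%. Genomic models were scarcer in the members (3.74% and 5.79%) than in all annotated genes (10.9% and 15.3%), and NNC models were more frequent (7.61% and 4.97%, against 4.38% and 3.14%).

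The lower known share of replicate 2 recurred across the members. It was lower there in 35 of 37 genes, higher in PSMD9 (77.9% and 79.8%), and 0 in both libraries in PSMD5. By a two-sided Fisher's exact test of known against other reads, adjusted over 8898 genes with at least 20 reads, 21 members were called lower, where 18.1% of all genes were, and 0 were called higher, where 0.202% of all genes were. Calls depended on depth: over the 3879 genes with 100 reads or more, 43.2% were called in either direction, and 24 of the 36 members of that depth were. The members' median share was 60.8% and 43.8%, and that of all genes tested 27.3% and 14.0%. Since the whole of replicate 2 had fewer known reads, the test was repeated against the library-wide odds ratio of 0.666. Then 6 members were called lower, PSMA6, PSMB1, PSMB4, PSMD2, PSMD8 and PSME3, where 4.34% of all genes were. That share covers genes of at least 20 reads and was not recomputed for genes of like depth.

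PSMD2 and PSME3 showed the lowest known shares among these 6 genes. In PSMD2 (chromosome 3, 184298709 to 184309054, plus strand) the known share was 39.0% in replicate 1 and 9.31% in replicate 2, as the 21-exon model PSMD2-201 had 98 and then 17 reads. PSME3 (chromosome 17, 42824385 to 42843758, plus strand) had 28.8% and 6.80%, and its most read known model, PSME3-210, had 72 and 14 reads. PSMD8 had 75.1% and 49.0%, with 358 and 193 reads of PSMD8-201. The other 3 genes, all of the core, kept the majority of their reads in known models: PSMB4 had 82.9% and 63.0%, PSMB1 81.8% and 65.04% and PSMA6 79.7% and 63.03%.

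**Figure D3:**
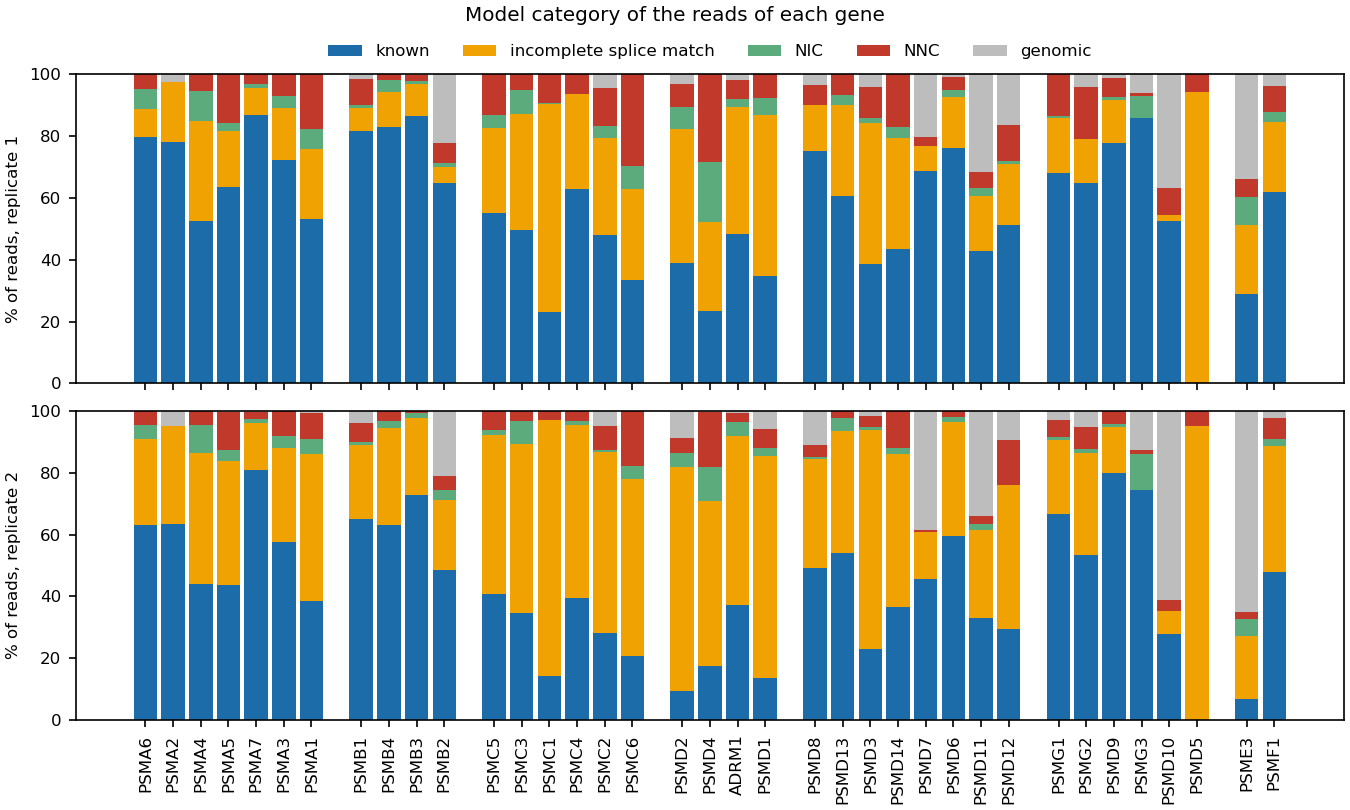
Share of each gene's reads in known, ISM, NIC, NNC and genomic models, in percent, in replicate 1 (upper panel) and replicate 2 (lower panel). The blue known share is lower in replicate 2 in 35 of 37 genes and the orange ISM share larger in most, while PSMB2, PSMD7, PSMD11, PSMD10 and PSME3 carry grey genomic shares of 20% or more in both libraries.

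Genes with fewer exons had more of their reads in known models. Over the 36 members with a known model, Spearman's rho between the exons of the most read known model and the known share was -0.74 in replicate 1 and -0.70 in replicate 2, and with the ISM share it was 0.827 and 0.766 (descriptions across genes that share their libraries). Between the bases of the most read known model and the known share, rho was -0.50 and -0.41. Exon number and length were not separated. In the 14 genes of 2 to 7 exons, which include all 4 beta genes, known models held 78.1% and 62.1% of the reads. In the 12 genes of 8 to 11 exons they held 55.2% and 41.2%, and in the 10 genes of 12 to 25 exons 46.4% and 31.4%. All genes of 2 to 7 exons stood at 64.1% and 54.9% (3819 genes), and those of 8 to 11 exons at 49.1% and 33.4% (1616 genes). All genes of 12 or more exons, with no upper limit, stood at 27.5% and 13.5% (1853 genes). The members were above them in each bin and library, but in the last bin the exon numbers were not matched. The scaffold PSMD1, with the most exons of any member, had 42 and 7 reads of its 25-exon model PSMD1-201. The change between the libraries did not follow exon number (rho of -0.04 over 36 genes).

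**Figure D4:**
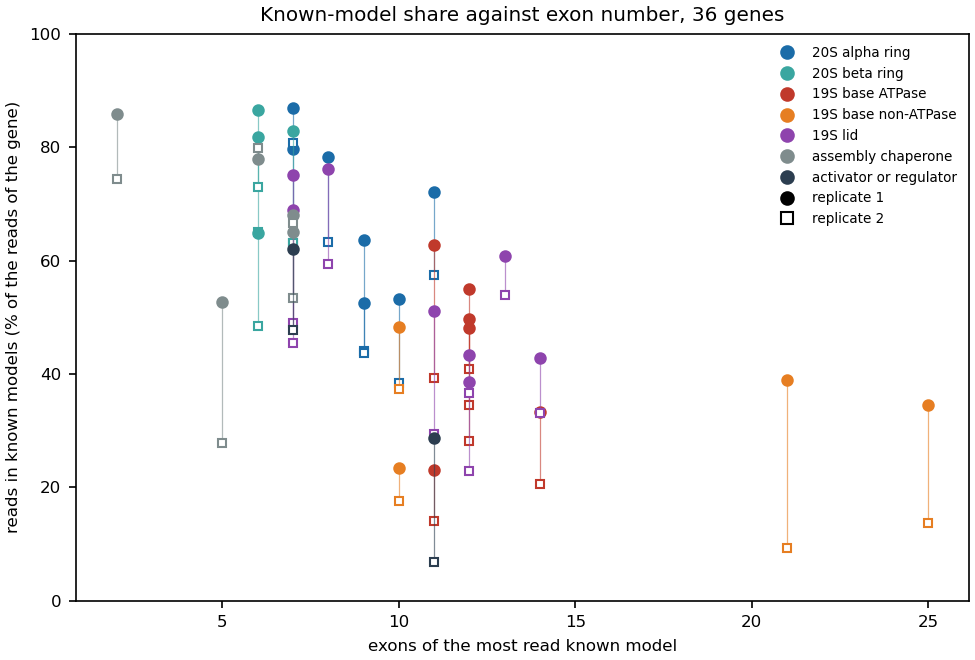
Share of reads in known models, in percent, against the exons of the most read known model, for the 36 members that have one; circles are replicate 1, open squares replicate 2, and colours give the role. Shares decline from above 60% in replicate 1 for most genes of 2 to 8 exons to 34.6% and 13.7% in PSMD1 at 25 exons.

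Use of the annotated models within a gene also differed between the libraries. Of 19 members with at least 2 known models of 10 or more reads, 12 were called in a Fisher's exact or permutation test adjusted over 1351 genes, where 23.2% of genes were called. With at least 20 reads per model, 8 of 12 members tested were called, where 31.5% of genes were. Those called at 10 or more reads were PSMA1, PSMA6, PSMA7, PSMB1, PSMB3, PSMB4, PSMD1, PSMD6, PSMD11, PSMD13, PSMF1 and PSMG1. The 19 genes had 23 such models besides the most read one, and these had 208 reads in replicate 1 and 414 in replicate 2. Of the 23, 15 are annotated as retained intron, a class of transcripts without a coding sequence.

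Most of these minor models were shorter chains from the 3′ end of the major one. The introns of 18 of the 23 were an unbroken run of the last introns of the gene's most read model, and all 18 took a larger share of the known reads in replicate 2. PSMB3-209, of 426 bases and 3 exons, had 8 and 44 reads, 1.75% and 12.2% of the tested known reads of PSMB3. PSMD6-204 had 2 and 23 reads, 2.04% and 27.4%. PSMA1-203 had 9 and 25 reads, PSMA7-206 had 11 and 26, and PSMD13-210 had 10 and 20. The 3 minor models with an intron of their own behaved otherwise: PSMD4-201 had 9 and 3 reads, PSMB3-212 7 and 4 and ADRM1-205 7 and 4, and 1 of them took a larger share in replicate 2. Both single-exon models, PSMD13-207 and PSMA6-205, did so too. Over all genes tested, 40.8% of 2092 minor models were such 3′ runs, and 91.3% of these 853 had a larger share in replicate 2, against 49.2% of 1239 other minor models.

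Known models recurred between the libraries more often than the others. Of 117 known models of the members 72.6% had a read in both libraries (57.8% in all genes), as did 43.8% of 667 ISM models (34.3%), 45.1% of 51 genomic models (46.1%), 19.9% of 297 NIC models (15.5%) and 87 of 458 NNC models (10.9% in all genes). Single-read models made up 16.2% of the known and 74.5% of the NNC models, and the part of read number in this order was not tested. Requiring 5 reads per library left 49 known models, 122 of ISM, 5 of NIC and 17 of NNC. The NNC model with the most support was ENCODEHT000669674 of PSMB1, with 6 exons, 923 bases and 42 and 26 reads. By the smaller of the library counts the leading NIC model was ENCODEHT000394147 of PSMA4, with 8 exons, 1153 bases and 15 and 18 reads, while ENCODEHT000319708 of PSMA6, with 34 and 10 reads, had more in total.

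Unannotated splicing was spread unevenly over the members. PSMD4, the ubiquitin receptor also known as Rpn10, had the largest share, with 118 of 247 reads (47.8%) in NIC or NNC models in replicate 1 and 57 of 199 (28.6%) in replicate 2. PSMC6 followed, with 29 of 78 reads (37.2%) and 16 of 73 (21.9%). PSMA2 had 0 such reads among the 927 assigned to it, which allows a share of up to 0.324% of reads so assigned. That limit does not cover reads of the locus assigned to another gene. Reads of that locus with NIC or NNC models were listed elsewhere: the annotated readthrough gene AC010132.3 (chromosome 7, 42909273 to 42932174, minus strand, GRCh38), which contains all 7 introns of PSMA2-201, held 13 such models with 11 and 17 reads, among 29 and 68 reads in all. A second readthrough gene, AL121594.1, shares 5 of the 6 introns of PSMA6-201 and had 53 and 102 reads. How reads of such overlapping genes were divided is uncertain. Adding the reads of 4 readthrough genes to the members, an alternative chosen after seeing the data, left 10 members called, with PSMA6 at a log2 ratio of -0.35.

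In a few members a model outside the annotated transcripts held a large part of the reads. PSMD5 (chromosome 9, 120815496 to 120842984, minus strand) had 0 reads in known models among 38, which allows up to 7.89%, and a single-exon ISM model of 2111 bases held 16 of 18 and 18 of 20 of its reads. In PSMD10, also called gankyrin, the genomic single-interval model ENCODEHT000472120 of 637 bases had 21 of 57 and 33 of 54 reads. In PSME3 the genomic model ENCODEHT000431208 of 1522 bases had 84 of 250 reads in replicate 1 and 126 of 206 in replicate 2. Without genomic models the log2 ratio of PSME3 was -1.27 in place of -0.43, so its gene level depended strongly on whether these reads were counted. PSMB2 had 77 reads of 1 genomic model in each library, and PSMD7 had 33 and 60.

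The lengths of NIC and NNC models with as many exons as the most read known model were set beside its length. Which exons they hold was not checked. Known models carry the annotated length in the table, whereas the others carry a length of their own, so only the latter can show an end that differs. Of 27 members with at least 10 reads in NIC or NNC models of the same exon number as the most read known model, 10 had a median NIC and NNC length within 100 bases of it. In 12 the median was shorter by 500 bases or more, in 4 it was shorter by an amount in between, and in PSME3 it was longer; these limits were chosen after the values were seen. PSMA4-201 has 4411 bases, of which 3475 follow the stop codon, and 11 NIC and NNC models of 9 exons had a median of 1146 bases (range 1111 to 1254, 30 reads). PSMC1-201 has 4448 bases and its NIC and NNC counterparts had a median of 1607 bases, PSMD12-201 has 4406 against 1502, PSMF1-203 has 4290 against 1380 and PSMA5-201 has 3729 against 990. In 4 of the 12 the median was shorter than the distance from the transcript start to the stop codon, so that a shorter 3′ UTR alone cannot give it: PSMD8 (800 against 1119 bases), PSMG1 (1003 against 1333), PSMG2 (1093 against 1477) and PSMD2 (2893 against 3285). The same held for all 4 genes in between: PSMA1 (1151 against 1189), PSMC4 (1408 against 1455), PSMC5 (1332 against 1529) and PSMD14 (1533 against 1637). PSME3-210, which is annotated without a 3′ UTR at 998 bases, had NIC and NNC models of 11 exons with a median of 2623.5 bases.

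In 5 of these 12 genes, a polyadenylation hexamer began within 50 bases of the median NIC and NNC length, before or after it. The hexamers searched were AATAAA and ATTAAA after the stop codon of the annotated transcript. The hexamer began before the median length in PSMC2 (base 1434 against 1451) and PSMC6 (1565 against 1590). It began after the median length in PSMA4 (1163 against 1146), PSMC1 (1620 against 1607) and PSMD12 (1519 against 1502). Lengths were counted from the 5′ end of the annotated transcript. NIC and NNC models differ from it in splicing and their positions are not given, so the hexamers cannot place their ends. The 30-base windows around the hexamers, from the GENCODE release 29 transcripts, are shown 5′ to 3′ with the hexamer in capitals.
PSMA4-201, from base 1163, chr15:78549159-78549188, plus strand: ccctttttttggAATAAAatttggaaaatg
PSMC1-201, from base 1620, chr14:90272589-90272618, plus strand: agtctgcttcccAATAAAgcgtgctctttc
PSMC2-201, from base 1434, chr7:103368174-103368203, plus strand: ttcttgtaatatAATAAAaggtgatttcta
PSMC6-201, from base 1565, chr14:52727952-52727981, plus strand: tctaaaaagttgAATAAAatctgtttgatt
PSMD12-201, from base 1519, chr17:67340786-67340815, minus strand: aaattggaagtcATTAAAaaaagactgtta
The base given is that of the first capital, counted from the 5′ end of the transcript, and coordinates are GRCh38. Such hexamers are frequent in long 3′ UTRs: PSMA4-201 has 9 after its stop codon and PSMC2-201 has 10. A match is therefore a description of the sequence and not a mapped end. Of the 36 most read known models, 32 had such a hexamer starting in their last 50 bases.

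**Figure D5:**
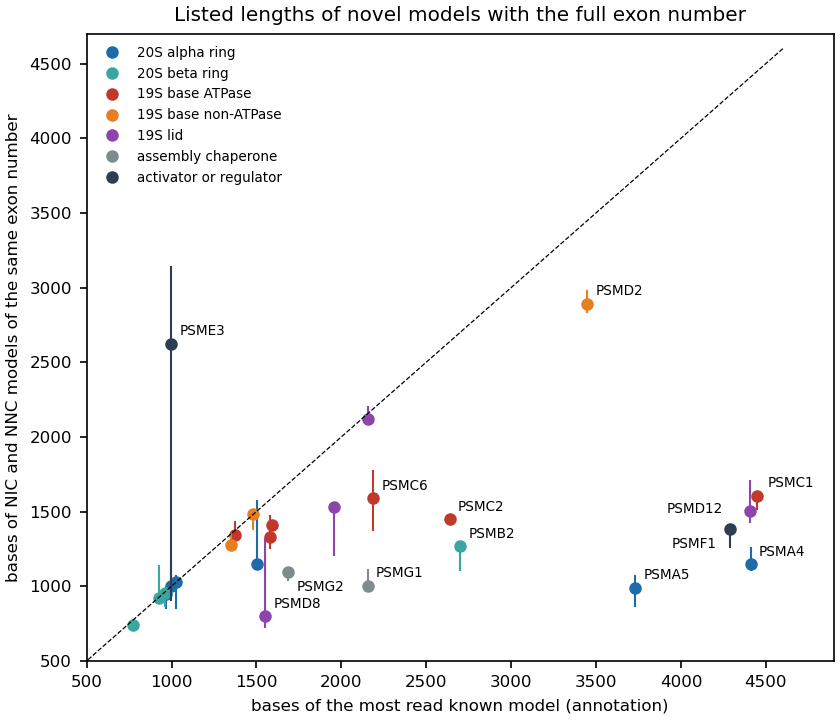
Listed length in bases of NIC and NNC models with the exon number of the most read known model (vertical axis; points are read-weighted medians, lines run from the shortest to the longest) against the annotated length of that known model (horizontal axis), for 27 members coloured by role. Points on the dashed line have equal lengths; 12 named genes lie 500 bases or more below it and PSME3 lies above.

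Proteasome genes are known to share control by NFE2L1, a factor that binds antioxidant response elements, so the promoters of the members were searched for a simplified form of that element and for 3 other motifs. RefSeq promoters (GRCh38.p14, 250 bases before to 50 after each start) were matched by symbol for 33 members. On both strands, TGACNNNGC was present in 12 of 33 (36.4%), against 16.1% of the 27305 genes with a listed promoter. A gene was counted when any of its promoters held the motif. CCGGAAG, the core of many ETS factor sites, was also in 12 (36.4%, against 12.2%), and CCAAT in 18 (54.5%, against 39.7%). TATAAA was in 4 (12.1%, against 14.0%). Only 2 members had both of the first pair, and 22 had either. The stretches around 5 of the TGACNNNGC matches are printed to show how they differ in the unfixed bases, together with a CCGGAAG match in PSMC6, the least read ATPase; the motif is in capitals and each window lies upstream of the annotated gene.
PSMB3, chr17:38752617-38752665, plus strand: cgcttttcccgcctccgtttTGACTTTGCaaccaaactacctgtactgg
PSMD3, chr17:39980750-39980796, plus strand: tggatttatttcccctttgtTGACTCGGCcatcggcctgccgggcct
PSMD12, chr17:67366714-67366762, minus strand: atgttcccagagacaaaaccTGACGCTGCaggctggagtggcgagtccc
PSMD9, chr12:121888668-121888716, plus strand: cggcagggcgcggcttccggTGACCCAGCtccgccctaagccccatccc
PSMD5, chr9:120843028-120843076, minus strand: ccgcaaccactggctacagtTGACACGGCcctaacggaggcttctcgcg
PSMC6, chr14:52707073-52707119, plus strand: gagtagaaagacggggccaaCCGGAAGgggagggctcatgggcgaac
Genes with a match covered a wide range of levels, as these 6 include PSMB3, at 359.9 CPM, and PSMD5, at 13.2 CPM. The median of the 12 genes with TGACNNNGC was 127.9 CPM in replicate 1 and 94.6 CPM in replicate 2, and that of the 21 without it 186.7 and 136.3 CPM. For CCGGAAG the medians were 124.6 and 96.96 CPM with it and 186.7 and 147.6 CPM without. CCAAT went the other way, with 191.1 and 148.9 CPM in the 18 genes that hold it and 119.8 and 87.4 CPM in the 15 others. None of these differences was tested.

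A further 28 genes of the pathway were set beside the members. Reads were found for 26, and PSMA8 and PSMB11, the subunits of the testis and the thymus forms, had 0, which allows up to 2.21 and 1.99 CPM. Of the 26, 16 were lower in replicate 2 and 10 higher, and the median log2 ratio was -0.03. Among them 3 were called lower: PSME2 (-0.43), PSMB10 (-0.42) and POMP (-0.40). Of all genes tested 2.33% were called lower, and of genes with at least 100 reads 5.62%. The proteolytic subunits of the standard core had means of 132.1 CPM (PSMB5), 239.7 CPM (PSMB6) and 245.7 CPM (PSMB7), and those of the immunoproteasome 298.3 CPM (PSMB10), 279.1 CPM (PSMB9) and 455.3 CPM (PSMB8). The 11S activator genes PSME2, at 675.7 ± 142 CPM (SD, n = 2), and PSME1, at 508.7 ± 42.7 CPM (SD, n = 2), both exceeded every one of the 37 members in mean CPM. NFE2L1 had 107 and 86 reads, and DDI2, the protease that processes its product, 21 and 19.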

How the data were processed

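Direct RNA libraries of GM12878 were compared as replicates 1 and 2 of 1 group. The authors deposited raw read counts per transcript model, with the exon number and the bases of each model; the submitters' processing notes name minimap2 and hg38, and the table is that of the program TALON. Versions and read filters are not given in the sources used here. Gene positions and exon structures were taken from GENCODE release 29 (GRCh38). Member genes and all lists were chosen with earlier results of these data known. Named genes are all members, a list of 28 other pathway genes, models with the highest smaller count, and members past a threshold.

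Gene counts are sums over all models; CPM uses the library totals. Tests were the two-sided exact binomial test per gene (at least 10 reads in the libraries together), Fisher's exact test of known against other reads (at least 20), and, for known models of at least 10 reads, Fisher's exact test or 10000 permutations of the reads. All were adjusted by Benjamini-Hochberg over all genes tested, with a threshold of 0.05, and the scripts were tested on simulated data. With 1 group, edgeR 4.0.16 (TMM) and DESeq2 1.42.0 served only as scaling alternatives. Analyses used Python 3.11.15 and scipy 1.17.1.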

Additional observations from a re-analysis of the deposited data

How the results depend on the processing

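The median member level, 154.4 CPM, was 120.3 CPM with known models only. The coefficient of variation of the member levels, 64.7%, was 92.8% with known models only and 68.4% without genomic models. Per kilobase of annotated length it was 104.04%, an alternative chosen after seeing the data. The NIC and NNC share, 9.60%, was 5.28% with models of at least 5 reads. The number of members with a different known share, 21, was 6 against the library-wide odds ratio, and that with different model usage, 12, was 29 of 35 tested with ISM, NIC and NNC models included, where 44.2% of all genes were called. The cause was not tested for any of these. The number called by gene count, 10, was 9 to 12 under 7 alternatives; with known models only it was 12, when 12.99% of all genes were called lower and their median log2 ratio was -0.26. Of 70 recomputed ratios of the called genes, 67 kept direction and call, 3 lost the call and 0 reversed. The calls lost were PSME3 with no minimum of reads, PSMD4 with known models only and PSMC3 without genomic models. Another minimum of reads leaves each ratio as it was, and added readthrough reads altered that of PSMA6 alone. For the unaltered ratios only the call could differ, not the direction. Rescaling moved every ratio by the same small amount and could not reverse any. PSMB1, the least negative of them, went from -0.33 to -0.36 (edgeR TMM) and -0.32 (DESeq2). A reversal was therefore possible only where reads were left out or added. Leaving out a replicate gives the other one's value: 131.7 to 177.2 CPM for the median level, 48.8 to 64.1% for the known share, 20.9 to 37.5% for ISM and 7.94 to 11.3% for NIC and NNC. No paired analysis was possible because the libraries form 1 group. PSMD5, with 38 reads the only member under 100, had too few for a small difference to be detectable.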

Other observations

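Reads were also listed for pseudogenes and antisense genes of the family. They resemble or overlap members or other pathway genes, so that the assignment of their reads is uncertain. PSMC1P1, a pseudogene of PSMC1, had 56 reads in replicate 1 and 27 in replicate 2, all in known models; the log2 difference was -1.19, which the exact binomial test called at an adjusted p of 0.00852, whereas PSMC1 itself had 186 and 199 reads. PSMA6P1 had 11 and 13 reads and PSMB3P2 had 1 and 0. Of the antisense genes, PSMA3-AS1 had 12 and 5 reads, PSMG3-AS1 2 and 8 and PSMD6-AS2 0 and 1. Together the 9 pseudogenes and antisense genes listed had 156 and 134 reads, against 9717 and 8849 in the members. The 9 include PSMB8-AS1 (58 and 50 reads), PSME2P2 (16 and 26) and PSME2P6 (0 and 4), which relate to PSMB8 and PSME2, genes outside the members.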
